A study of Mus musculus with 7 samples.

Results

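Hox genes of paralog groups 1 to 3 were followed in sorted mouse neural crest cells (NCCs). The 6 genes taken by symbol were Hoxb1 of group 1, Hoxa2 and Hoxb2 of group 2, and Hoxa3, Hoxb3 and Hoxd3 of group 3, of the 32285 genes listed in the files. Single-cell RNA sequencing of EGFP-positive cells gave 7 libraries, each made from pooled embryos. There was 1 control library at E8.5, 1 at E9.5 and 2 at E10.5, and 1 library labelled Tbx1 null at E9.5 and 2 at E10.5. All embryos were of a mixed Swiss-Webster background, and control embryos carried Wnt1-Cre/+ and ROSA-EGFPf/+. The libraries titled Tbx1 null carry Wnt1-Cre/+;Tbx1+/-;ROSA-EGFPf/+ in their genotype label, whereas the methods of the study describe homozygous loss of Tbx1, so these are called the libraries labelled Tbx1 null. Wnt1-Cre acts in the dorsal neural tube and marks the crest and its descendants, so that labelled neural tube cells are sorted with the crest, and Tbx1 itself acts mainly in neighbouring tissue. In mesenchymal cells at E10.5 the level of Tbx1 in UMIs per 1000000 UMIs (CPM) was 7.58 and 4.57 in the controls and 6.21 and 6.37 in the libraries labelled Tbx1 null, and a tag at the 3' end that may lie outside the deleted part checks no label.

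The tissue taken differed between stages. At E8.5 it was the anterior part of the embryo with the head, at E9.5 the pharyngeal apparatus with the first arch, the heart and the neural tube at that level, and at E10.5 the arches behind the first arch with the heart and neural tube. Stage and dissected tissue cannot be told apart in any comparison over stages. The labels give kit version 2 for the E8.5 library, version 3 for the Tbx1 null library at E9.5 and for replicate 1 of Tbx1 null at E10.5, and version 3.1 for the other libraries. Of 65862 barcodes, 53276 cells were kept, with 5587 to 9555 cells and 126469249 to 198231487 UMIs a library.

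Hox genes encode homeodomain transcription factors that lie in clusters, and their order in a cluster mirrors the order of their anterior limits along the body. In the hindbrain, Hoxa2 reaches farthest forward of these genes, Hoxb1 is kept in rhombomere 4, and group 3 genes start farther back. Crest cells carry this code into the arches: first arch crest lacks Hox expression, second arch crest expresses group 2, and crest of the third and more caudal arches also expresses group 3.

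In GRCm38 coordinates (GENCODE vM21), Hoxb3 (ENSMUSG00000048763, chr11:96323326-96347930), Hoxb2 (ENSMUSG00000075588, chr11:96350525-96354012) and Hoxb1 (ENSMUSG00000018973, chr11:96365752-96368256) lie on the plus strand of chromosome 11. Hoxa2 (ENSMUSG00000014704, chr6:52162417-52164831) and Hoxa3 (ENSMUSG00000079560, chr6:52169062-52213336) lie on the minus strand of chromosome 6, and Hoxd3 (ENSMUSG00000079277, chr2:74711927-74748442) lies on the plus strand of chromosome 2. The annotated span of Hoxa3 holds Hoxa4, Hoxa5 and Hoxa6 on its own strand, and that of Hoxd3 overlaps Hoxd4. Gm28308, annotated as protein coding, overlaps Hoxa2 and Hoxa3 on their strand. How reads shared by such genes were counted was not checked, so the levels of Hoxa2, Hoxa3 and Hoxd3 are uncertain to that extent. Hoxb1 overlaps no other annotated gene.

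The start of 1 gene of each paralog group is shown, since the groups differed in where their RNA was found. RefSeq (GRCm38.p6) gave a promoter for 4 of the 6 genes, from 250 bases before to 50 after the start, with none matched for Hoxb2 and Hoxb3. The sequences below are those of Hoxb1 (chr11:96365508-96365807, plus strand), Hoxa2 (chr6:52164782-52165081, minus strand) and Hoxa3 (chr6:52213018-52213317, minus strand), written along the gene. Capitals mark TGATNNAT, a motif bound by PBX and HOX proteins together, and TGACAG, a motif of their MEIS partners, each searched on both strands.
Hoxb1: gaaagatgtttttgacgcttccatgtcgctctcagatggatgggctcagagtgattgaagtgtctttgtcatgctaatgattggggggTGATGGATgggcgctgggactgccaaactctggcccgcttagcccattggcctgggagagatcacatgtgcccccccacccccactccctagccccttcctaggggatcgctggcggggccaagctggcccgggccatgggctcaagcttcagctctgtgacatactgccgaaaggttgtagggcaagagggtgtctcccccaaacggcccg
Hoxa2: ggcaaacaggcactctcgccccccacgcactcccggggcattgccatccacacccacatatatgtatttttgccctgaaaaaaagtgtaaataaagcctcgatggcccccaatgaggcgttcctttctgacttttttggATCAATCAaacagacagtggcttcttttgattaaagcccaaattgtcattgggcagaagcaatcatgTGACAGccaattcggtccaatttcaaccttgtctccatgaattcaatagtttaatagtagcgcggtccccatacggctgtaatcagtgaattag
Hoxa3: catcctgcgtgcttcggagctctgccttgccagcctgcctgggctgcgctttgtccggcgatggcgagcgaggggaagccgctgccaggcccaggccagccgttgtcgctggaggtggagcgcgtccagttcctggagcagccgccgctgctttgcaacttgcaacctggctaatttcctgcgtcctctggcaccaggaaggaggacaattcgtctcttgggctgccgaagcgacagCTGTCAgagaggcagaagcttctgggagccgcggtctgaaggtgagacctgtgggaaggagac
Hoxb1 held TGATGGAT from base -162 before the start, and Hoxa2 held a TGATNNAT match on the opposite strand from base -111 and TGACAG from base -44. Hoxa3 held TGACAG on the opposite strand from base -13, and the Hoxd3 promoter held neither motif. The Hoxa3 stretch lies at the far end of its annotated span, upstream of Hoxa4, Hoxa5 and Hoxa6. Which start gave the Hoxa3 RNA measured here was not tested. Over all promoters of this length, 8.85% held TGATNNAT and 19.2% held TGACAG, so a match describes these letters and no more.

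Cells were placed in classes by UMIs of genes outside the Hox clusters. Mesenchymal cells held at least 2 UMIs of Twist1, Prrx1 and Prrx2 together, neural cells at least 1 Sox2 UMI and no Twist1, and Sox10 cells at least 2 UMIs of Sox10, a gene of migrating and glial crest. The classes overlapped. At E8.5, 83% of Sox10 cells were also mesenchymal, against 3.99% to 22.4% in the E10.5 libraries. Mesenchymal cells that also met the neural rule made up 8.46% and 1.21% of the class in the E10.5 controls and 17.5% and 23.9% in the libraries labelled Tbx1 null. The summed level of 5 neural progenitor markers (Sox1, Sox3, Nes, Hes5 and Fabp7) in mesenchymal cells at E10.5 was 218 and 74.8 CPM in controls and 311 and 509 in the libraries labelled Tbx1 null, and no marker was at 0. Neural cells held 1050 to 1830 in the same libraries. At E10.5 the 5 mesenchyme markers summed to 539 to 646 CPM in mesenchymal and 258 to 354 in neural cells, and the 5 markers of migrating and glial crest to 514 to 719 CPM in Sox10 cells. In mesenchymal cells the latter summed to 13.9 and 12.6 CPM in controls and 46.4 and 62.5 in the libraries labelled Tbx1 null. In neural cells these crest markers summed to 67 and 249 CPM in controls and 175 and 130 in the libraries labelled Tbx1 null. Cells meeting both the neural and the Sox10 rule stayed in the neural sums by genotype and in the main comparison with mesenchymal cells. A narrower class took cells with 2 or more Twist1 UMIs, no Sox2 UMI and under 2 Sox10 UMIs. It was chosen after seeing the data, and its cells are called Twist1 cells here. Their neural progenitor markers summed to 56 and 55.4 CPM in the E10.5 controls and 53.7 and 110 in the libraries labelled Tbx1 null. The main mesenchymal results are given in Twist1 cells too.

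Levels are given in CPM, with UMIs summed over the cells of a class in a library. Their 95% Poisson intervals, and the binomial ones of shares of cells, cover counting error only. Fewer cells that express a gene and less RNA per cell cannot be told apart in such sums. CPM also leaves out the TMM scaling between libraries that the tests use. In the stage fit of neural cells its factors were 0.8552 and 0.8508 at E9.5 and 1.029 to 1.1384 at E10.5. Orders of CPM over stages or genotypes can change under that scaling.

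Hoxb1, the group 1 gene, had a pattern of its own. In mesenchymal cells its level was 13 CPM at E8.5, and 3.15 in the control and 2.52 in the Tbx1 null library at E9.5. At E10.5 it was 1.89 and 0.178 CPM in the controls and 6.15 and 8.56 in the libraries labelled Tbx1 null. The E10.5 controls thus differed from each other by more than 10 times, with 139 and 20 UMIs behind their values. In neural cells Hoxb1 was at 5.74 CPM at E8.5, at 23.3 and 19.2 at E9.5 in control and Tbx1 null, and at E10.5 at 10.1 and 5.05 in controls and 20.4 and 18.7 in the libraries labelled Tbx1 null. In Sox10 cells it went from 15.4 CPM at E8.5 through 8.81 and 4.52 at E9.5 to 0.993 and 0 in the E10.5 controls and 0.743 and 1.06 in the libraries labelled Tbx1 null. The 0 of control replicate 2 allows up to 0.294 CPM by the limit of 3 UMIs. Hoxb1 was therefore highest at E8.5 in the crest classes, and in neural cells of controls at E9.5. In neural cells of the libraries labelled Tbx1 null its E10.5 CPM enclosed that of E9.5, but after the TMM scaling of the stage fit both E10.5 values lay below it.

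In Twist1 cells Hoxb1 was at 2.78 CPM at E8.5, 0.244 and 0.183 at E9.5, 0.0684 and 0.114 in the E10.5 controls and 0.46 and 1.19 in the libraries labelled Tbx1 null. Every library had less Hoxb1 in Twist1 cells than in the mesenchymal class. The mesenchymal class includes cells that meet the neural or Sox10 rule. In its cells that meet neither, Hoxb1 was at 8.84 CPM at E8.5 and at 0.976 and 0.992 at E9.5 in control and Tbx1 null. At E10.5 it was there at 0.444 and 0.135 CPM in the controls and 1.96 and 5.72 in the libraries labelled Tbx1 null. The part of the cells that meet more than 1 rule was described by these levels and not tested.

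Hoxa2 and Hoxb2, the group 2 genes, were already above the levels of Hox-free cells at E8.5, as given further on. Hoxa2, which sets second arch identity, was at 9.39 CPM in E8.5 mesenchymal cells, 22.9 in the control and 21.7 in the Tbx1 null library of E9.5, 83 and 76 in the E10.5 controls and 90.6 and 72 in the libraries labelled Tbx1 null. The 4 libraries at E10.5 overlapped by genotype, and all lay above both E9.5 libraries. In neural cells Hoxa2 was at 6.82 CPM at E8.5, 63.3 and 59.8 at E9.5, 96 and 76.4 in the E10.5 controls and 89.5 and 75.1 in the libraries labelled Tbx1 null. In Sox10 cells the same libraries had 11.4, 36.8, 35.2, 56.4, 40.5, 58.9 and 34.2 CPM, so that the E10.5 values enclosed those of E9.5. The neural and mesenchymal levels of Hoxa2 at E10.5 overlapped.

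Hoxb2, which acts beside Hoxa2 in the hindbrain and second arch, was at 22.1 CPM in E8.5 mesenchymal cells, 46.5 and 40 in the E9.5 pair, 70.3 and 44.9 in the E10.5 controls and 128 and 80.2 in the libraries labelled Tbx1 null. In neural cells the E8.5 level of 12.9 CPM was followed by 169 and 178 in the E9.5 pair and by 200, 163, 259 and 127 in the E10.5 libraries, controls first. In Sox10 cells it was at 27, 89.6, 88, 135, 106, 208 and 75.3 CPM in that order of libraries. Within each library from E9.5 on its neural level was the highest of the 3 classes, and its level at E8.5 was the lowest of all stages in every class.

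The group 3 genes were low at E8.5 in every class. Hoxa3, needed for derivatives of the third arch and pouch, was at 1.13 CPM in mesenchymal cells, 0.532 in neural cells and 2.2 in Sox10 cells. At E9.5 it was at 5.15 and 5.73 CPM in mesenchymal cells of control and Tbx1 null, 11.2 and 14.9 in neural cells and 10.8 and 16.7 in Sox10 cells. At E10.5 mesenchymal cells held 20 and 14.4 CPM in controls and 40.5 and 37.8 in the libraries labelled Tbx1 null. Neural cells held 50.1 and 60.9 CPM in controls and 56 and 53.1 in the libraries labelled Tbx1 null, and Sox10 cells 47.2, 47.4, 63.7 and 41.9. Neural and Sox10 levels overlapped between genotypes, and mesenchymal levels did not, with the share of all genes without overlap not counted.

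Hoxb3, the marker of crest caudal to the second arch in the study, was at 0.814 CPM in E8.5 mesenchymal cells, 13.1 and 9.33 in the E9.5 pair, 28 and 21.8 in the E10.5 controls and 61.1 and 79.4 in the libraries labelled Tbx1 null. In neural cells it was at 0.393 CPM at E8.5, 23 and 28.3 in the E9.5 pair and 89.4, 83.6, 84.8 and 125 in the E10.5 libraries, controls first. In Sox10 cells it was at 1.78, 19.4, 23.8, 20.4, 30.9, 35 and 46.4 CPM from E8.5 to E10.5 Tbx1 null. The Sox10 levels of Hoxb3 in the E10.5 controls overlapped those at E9.5, whereas its neural levels at E10.5 all lay above those at E9.5.

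Hoxd3, the group 3 gene of the HoxD cluster, was at 0.719 CPM in mesenchymal cells at E8.5, with 53 UMIs, and at 6.98 and 5.61 at E9.5. At E10.5 it was at 12.5 and 7.49 CPM in controls and at 33.7 and 45.7 in the libraries labelled Tbx1 null. In neural cells it was at 1.09 CPM at E8.5, 26.9 and 34.9 in the E9.5 pair and 57.9, 47.7, 82 and 71.7 in the E10.5 libraries. In Sox10 cells it was at 2.18 CPM at E8.5, 13.2 and 17.1 at E9.5, 18.3 and 21.3 in the E10.5 controls and 40.5 and 34.8 in the libraries labelled Tbx1 null. The genotypes did not overlap for Hoxd3 in any class at E10.5, and the share of all genes without overlap was not counted.

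**Figure D1:**
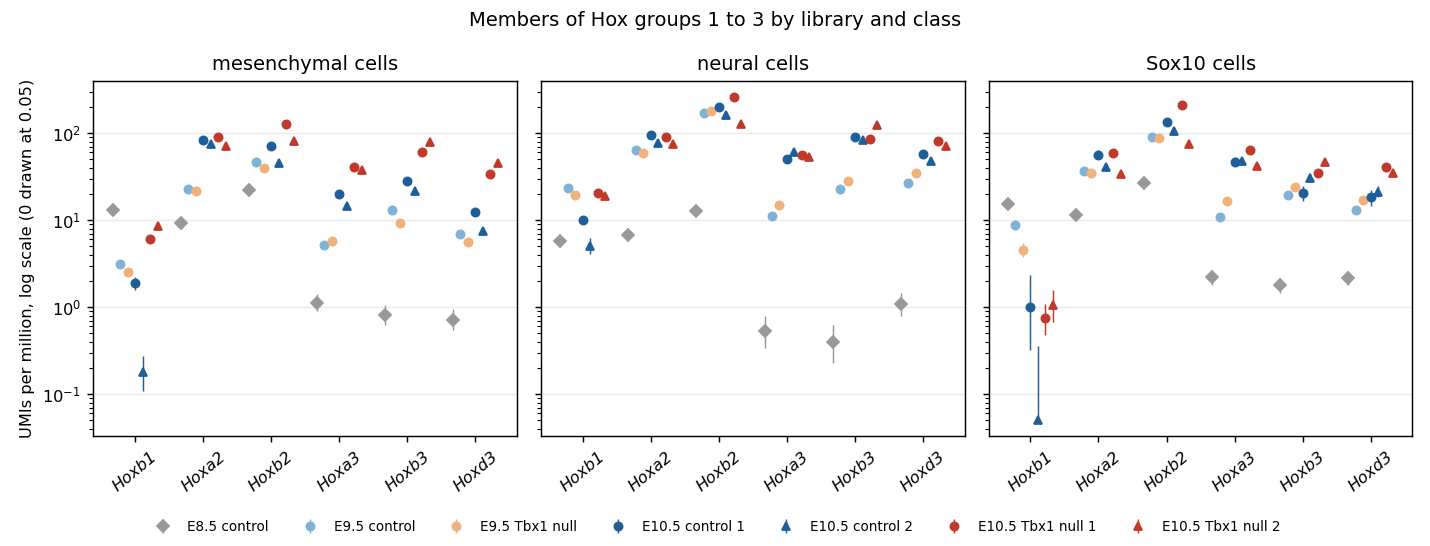
CPM of each gene (log scale) in mesenchymal, neural and Sox10 cells, with 1 point for each library and bars for the 95% Poisson interval. Group 3 genes start at 0.393 to 2.2 CPM at E8.5 and lie higher at E9.5 and E10.5, whereas Hoxb1 in Sox10 cells goes from 15.4 CPM to 0 to 1.06 at E10.5.

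Which class held most of each gene at E10.5 was tested with the library as a block, leaving out cells that met both rules. Neural cells held more than mesenchymal cells of 5 of the 6 genes, against 40.4% of all genes called in either direction and 20.6% called as higher in neural cells. The log2 difference was 3.42 ± 0.49 (SE, 4 libraries) for Hoxb1, with an adjusted p of 0.00268 by the edgeR quasi-likelihood test. Hoxd3 followed at 1.95 ± 0.30 (adjusted p = 0.00345), Hoxb2 at 1.45 ± 0.14 (0.000698), Hoxb3 at 1.33 ± 0.25 (0.007) and Hoxa3 at 1.15 ± 0.25 (0.0119). Hoxa2 was not called, at 0.04 ± 0.08 with a 95% interval of -0.15 to 0.24 (edgeR adjusted p = 0.716). With all cells thinned to 5000 UMIs before classes were set, all 6 genes were called and Hoxa2 was at 0.23 (edgeR adjusted p = 0.0239). Where Twist1 cells replaced mesenchymal cells, here and in the interaction below, neural cells meeting the Sox10 rule were left out as well. In that setting Hoxa2 was at 0.16 (edgeR adjusted p = 0.0576), and the same 5 genes were called, Hoxb1 at 5.55. In neural cells meeting no other rule, Hoxa2 was at 98.3 and 95 CPM in controls and 104 and 87.1 in the libraries labelled Tbx1 null. Its levels in Twist1 cells were 82.5, 76.5, 99.1 and 80.1 CPM. In the main setting without control replicate 1, Hoxa3 missed the threshold at 1.02 (edgeR adjusted p = 0.0749).

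Sox10 cells held less Hoxb1 and Hoxa2 and more Hoxb2 and Hoxa3 than mesenchymal cells, 4 of 6 genes against 41.8% of all genes. The log2 differences were -2.99 ± 0.42 for Hoxb1 (edgeR adjusted p = 0.00118), -0.75 ± 0.10 for Hoxa2 (0.000737), 0.76 ± 0.17 for Hoxb2 (0.00948) and 1.00 ± 0.20 for Hoxa3 (0.00578). The values for Hoxb3 (-0.41, 95% interval -0.87 to 0.05) and Hoxd3 (0.47, -0.11 to 1.06) did not pass. In the controls alone Hoxb1 was not called (-1.14, adjusted p = 0.239) and Hoxd3 was (1.10, 0.00214).

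Against neural cells, Sox10 cells held less of 5 genes, with 48% of all genes called, 26.2% of them all as lower in Sox10 cells. Many Sox10 cells also met the neural rule and were left out of this comparison. They were 130 of 200 and 304 of 526 in the controls, and 665 of 1214 and 453 of 710 in the libraries labelled Tbx1 null. The Sox10 cells compared here are thus other than those compared with mesenchymal cells. Hoxb1 differed by -4.92 ± 0.28 on the log2 scale (edgeR adjusted p = 5.56e-06), Hoxb3 by -1.80 ± 0.12 (9.2e-06), Hoxd3 by -1.46 ± 0.16 (0.000126), Hoxa2 by -1.11 ± 0.13 (0.000222) and Hoxb2 by -0.75 ± 0.11 (0.000659). Hoxa3 did not pass at -0.21 (95% interval -0.59 to 0.17) and was called in controls alone (-0.44, adjusted p = 0.0209). Of the group 2 genes, Hoxa2 was thus lower and Hoxb2 higher in Sox10 than in mesenchymal cells. Whether Hoxa3 and Hoxb3 differed from each other in this was not tested.

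E10.5 was compared with E9.5 in 6 libraries with genotype as a covariate. In mesenchymal cells Hoxa2 rose by 1.35 ± 0.18 on the log2 scale (edgeR adjusted p = 0.00679) and Hoxa3 by 1.72 ± 0.28 (0.00952), 2 of 6 genes. Of all genes 23.6% were called, and 11.5% were called as higher at E10.5. Hoxb3 (1.30 ± 0.42, adjusted p = 0.0616), Hoxd3 (1.02 ± 0.51, 0.177), Hoxb2 (0.31 ± 0.33, 0.506) and Hoxb1 (-0.81 ± 0.97, 0.564) did not pass. In Twist1 cells Hoxa2 rose by 1.90, Hoxa3 by 2.39 and Hoxb3 by 1.55, with edgeR adjusted p of 0.00107, 0.00145 and 0.0287. In the controls alone the difference of Hoxd3 was 0.06 and that of Hoxb3 0.46, whereas without the control library of E9.5 they were 2.25 and 2.34.

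In neural cells Hoxa3 rose by 1.74 ± 0.20 (edgeR adjusted p = 0.00486), Hoxb3 by 1.55 ± 0.20 (0.00586) and Hoxd3 by 0.72 ± 0.18 (0.0429), 3 of the 6 genes. Of all genes 8.94% were called, and 5.51% were called as higher at E10.5. Hoxa2 (0.11, 95% interval -0.30 to 0.52) and Hoxb2 (-0.23, -0.85 to 0.40) did not pass. Hoxb1 was at -1.18 ± 0.37 (adjusted p = 0.0776). The set of called genes moved with the settings at its edge. Hoxd3 missed the threshold with DESeq2 size factors (edgeR adjusted p = 0.05) and with no genotype covariate (0.0661). It also missed it with the filter set to 200 genes and 5% mitochondrial UMIs (0.0559). Hoxb1 was called as lower by DESeq2 (adjusted p = 0.00971) and by edgeR with no filter on low counts (8.49e-06). In controls alone none of the 6 was called. In Sox10 cells Hoxb1 fell by 3.58 ± 0.58 (edgeR adjusted p = 0.00234) and Hoxa3 rose by 1.499 ± 0.23 (0.00164), 2 of 6 genes with 24.4% of all genes called. Hoxb3 in Sox10 cells did not pass (0.21, 95% interval -0.26 to 0.69). Hoxd3 (0.48, 0.03 to 0.93, adjusted p = 0.109 by edgeR), Hoxb2 (0.17, -0.56 to 0.90) and Hoxa2 (0.01, -0.51 to 0.54) did not pass there either.

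E9.5 has 1 library a genotype, and these stage calls rest on both. Without the control library of E9.5 none of the 6 genes was called in any class, and without the Tbx1 null library of E9.5 none was called in mesenchymal or neural cells and 2 in Sox10 cells. Without the control and without the Tbx1 null library, Hoxa2 was at 1.35 and 1.34 and Hoxa3 at 2.21 and 1.28 in mesenchymal cells, and Hoxa3 at 1.48 and 2.01 in neural cells. Hoxb1 in mesenchymal cells, not called in any of these fits, turned from -0.81 to 0.97 without the control library and was at -2.10 without the Tbx1 null library, and Hoxb2 turned from 0.31 to -0.15 without the latter.

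**Figure D2:**
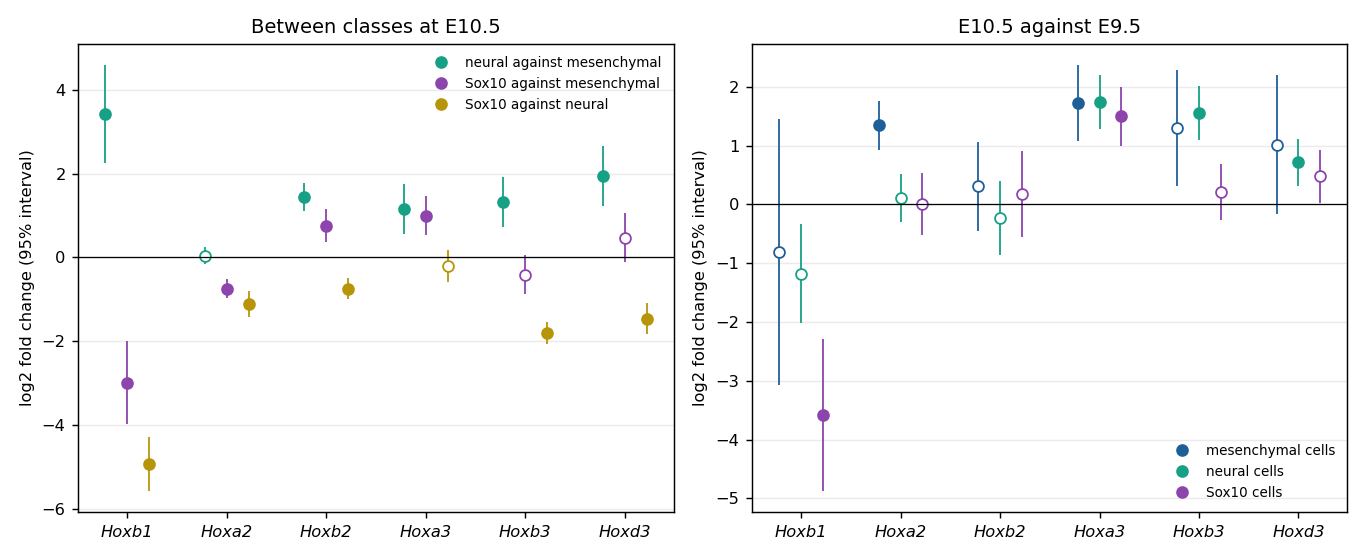
Log2 fold changes with 95% intervals between classes at E10.5 (left) and between E10.5 and E9.5 within each class (right), with filled points for an edgeR adjusted p under 0.05. Hoxa2 sits at 0.04 between neural and mesenchymal cells while the other 5 genes sit at 1.15 to 3.42, and Hoxb1 in Sox10 cells is at -3.58 between stages.

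Genotype at E10.5 was compared between 2 control and 2 Tbx1 null libraries. The p-values measure the spread between libraries of pooled embryos, and an exact permutation of single values could not go below 0.333 in this design. In mesenchymal cells all of the genes except Hoxa2 had higher CPM in both libraries labelled Tbx1 null than in both controls. For Hoxb2 this order was lost after the TMM scaling of the tests. The factors were 0.952 in control replicate 1 and 1.1382 in replicate 2 of Tbx1 null. How many of all genes had higher CPM in both was not counted, so the order alone says nothing particular to the members. None of the 6 was called, with 0.101% of all genes called (16 of 15895). The log2 difference was 1.80 ± 0.29 for Hoxd3 (edgeR adjusted p = 0.139), 1.30 ± 0.22 for Hoxb3 (adjusted p = 0.151) and 1.01 ± 0.24 for Hoxa3 (adjusted p = 0.221). For Hoxb1 it was 2.67 ± 0.90 (adjusted p = 0.266). Without adjustment, 4 of the 6 genes and 2382 of all genes had p under 0.05. Hoxb2 (0.70 ± 0.35, adjusted p = 0.391) and Hoxa2 (-0.14 ± 0.24, 95% interval -0.72 to 0.43) had smaller values. In simulated data of the same libraries, 2.5% of genes changed 2-fold were called, so a change of that size would mostly go uncalled.

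In Twist1 cells Hoxd3 was called, at 1.82 ± 0.22 (edgeR adjusted p = 0.0344), with levels of 6.93 and 6.99 CPM in controls and 23.4 and 31.2 in the libraries labelled Tbx1 null. Hoxb3 was at 20.6 and 21.3 against 60.4 and 53.8 CPM there, with a log2 difference of 1.31 (adjusted p = 0.114), and Hoxa3 at 17.4 and 14 against 41.6 and 37 CPM (1.20, 0.142). The markers of migrating and glial crest summed to 10.1 and 10.1 CPM in these cells of the controls and to 11.9 and 16.3 in those of the libraries labelled Tbx1 null, against 13.9, 12.6, 46.4 and 62.5 in the mesenchymal class. Twist1 cells are a part of the mesenchymal class, where the log2 differences of Hoxd3, Hoxb3 and Hoxa3 were 1.80, 1.30 and 1.01. The neural progenitor markers summed to 56 and 55.4 CPM in Twist1 cells of the controls and to 53.7 and 110 in those of the libraries labelled Tbx1 null. The neuron markers Tubb3, Elavl3 and Stmn2 summed to 27.7 and 23 CPM in the former and to 30.8 and 176 in the latter. The part of neural cells in the result was not tested. Hoxb2, at 53.1 and 43.6 against 94.1 and 48.1 CPM, had a smaller difference than in the mesenchymal class (0.45). Other settings moved the calls. With the replicate number as a block Hoxd3 (1.83, edgeR adjusted p = 0.037) and Hoxb3 (1.31, 0.0486) were called, and DESeq2 called Hoxa3, Hoxb3 and Hoxd3. The block, DESeq2 and the Twist1 class each also raised the number of all genes called, with the counts given in the last section. These member calls are thus part of a general rise in calls.

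Single libraries moved them too. Each of these fits sets 1 library against 2, so that the spread comes from the pair alone and the lone library is assumed to vary like it. Without control replicate 1, Hoxd3 was at 2.17 (edgeR adjusted p = 0.0235) and Hoxb1 at 5.12 (0.00362) against a control with 20 Hoxb1 UMIs, while the genes called rose from 16 to 231. Without replicate 1 of Tbx1 null, which leaves kit version 3.1 alone, Hoxb3 was at 1.44 (edgeR adjusted p = 0.0441) and Hoxd3 at 1.96 (0.0521), with 326 genes called. Without control replicate 2 Hoxb1 was at 1.77 and Hoxd3 at 1.48, neither called. Replicate 2 of Tbx1 null stood apart in its mesenchymal cells. Its 3 neuron markers (Tubb3, Elavl3 and Stmn2) summed to 740 CPM against 126 in replicate 1 and 68.5 and 34.6 in the controls, Dlx5, a gene of distal arch mesenchyme, was at 2.64 CPM against 31.7, 75.8 and 60.9, and Hoxb4 at 90.3 against 27.7, 22.3 and 17.8. Without it Hoxa3 was at 1.15, Hoxb3 at 1.21 and Hoxd3 at 1.67, none called.

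In neural cells the values of Hoxb1 lay 1.28 ± 0.35 higher on the log2 scale in the libraries labelled Tbx1 null (edgeR adjusted p = 0.9), and those of the other 5 genes between -0.13 and 0.48. None of the 6 was called by edgeR or DESeq2. edgeR called 0% of all genes in neural cells, where 778 of 15267 had an unadjusted p under 0.05 and DESeq2 called 42. In Sox10 cells Hoxd3 was at 0.88 ± 0.22 (edgeR adjusted p = 0.34) and Hoxb3 at 0.61 ± 0.26 (adjusted p = 0.505), with 0.0154% of all genes called and none of the 6. Hoxb1 was at 1.21 ± 1.05, Hoxb2 at 0.21 ± 0.40, Hoxa3 at 0.125 ± 0.25 and Hoxa2 at -0.08 ± 0.29 in Sox10 cells. Without replicate 2 of Tbx1 null, Hoxd3 was at 1.00 (edgeR adjusted p = 0.00804) and Hoxb2 at 0.77 (0.0279) there. That fit also rests on 1 library against 2, with the spread taken from the controls, and it called 739 genes in place of 2.

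Whether the genotype difference itself differed between classes was tested as an interaction. The neural minus mesenchymal difference was -1.34 ± 0.21 for Hoxd3, -1.12 ± 0.18 for Hoxb3, -1.12 ± 0.20 for Hoxa3, -0.60 ± 0.13 for Hoxb2 and -2.02 ± 0.52 for Hoxb1, with edgeR adjusted p of 0.107 to 0.251, and 0.05 ± 0.17 for Hoxa2 (0.945). None was called, with 0.0061% of all genes called (1 of 16381), while DESeq2 called the same 5 genes other than Hoxa2. DESeq2 also called many more of all genes here, as counted in the last section. With Twist1 cells, and neural cells outside the Sox10 rule, the values were -1.30 for Hoxd3, -1.11 for Hoxb3 and -1.26 for Hoxa3. The edgeR adjusted p there was 0.0782 to 0.257.

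**Figure D3:**
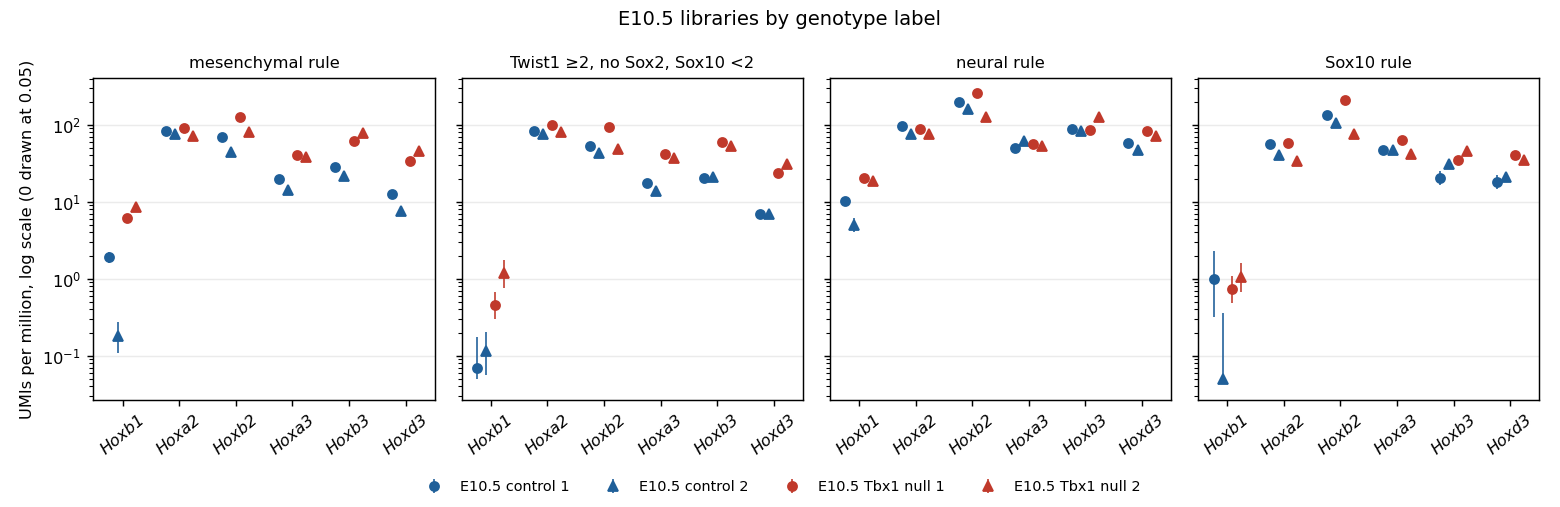
CPM (log scale) at E10.5 in the mesenchymal class, the narrower Twist1 cells, neural cells and Sox10 cells, by library, with 95% Poisson intervals. Hoxa3, Hoxb3 and Hoxd3 do not overlap between genotypes in either mesenchymal panel (Hoxd3 at 6.93 and 6.99 against 23.4 and 31.2 CPM in Twist1 cells), and Hoxa2 overlaps in all 4 panels. The share of all genes without overlap was not counted.

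At E9.5 the genotypes have 1 library each and no test was made, and the kits differ. The ratio of Tbx1 null to control in mesenchymal cells, after scaling by TMM factors, was 0.685 for Hoxb3 (95% counting interval 0.639 to 0.734), 0.774 for Hoxd3, 0.772 for Hoxb1, 0.829 for Hoxb2, 0.915 for Hoxa2 and 1.07 for Hoxa3 (0.971 to 1.19). None lay past 1.5-fold, as 8.56% of genes with 50 or more UMIs did. In neural cells the group 3 ratios were 1.31 for Hoxa3, 1.21 for Hoxb3 and 1.28 for Hoxd3, with 6.39% of genes past 1.5-fold and none of the 6. The neural ratios of the others were 0.81 for Hoxb1, 0.931 for Hoxa2 and 1.04 for Hoxb2. In Sox10 cells Hoxb1 was at 0.49 (0.393 to 0.609), the only 1 of the 6 past 1.5-fold beside 7.12% of genes, and Hoxa3 at 1.47 (1.28 to 1.7). The Sox10 ratios of the others were 0.913 for Hoxa2, 0.938 for Hoxb2, 1.17 for Hoxb3 and 1.24 for Hoxd3. Scaled by total UMIs in place of TMM, Hoxa3 in Sox10 cells also lay past 1.5-fold, at 1.54. The mesenchymal ratios of Hoxb1, Hoxb2, Hoxb3 and Hoxd3 at E9.5 thus lay on the other side of 1 from their E10.5 values, in libraries without a replicate.

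The sets of Hox genes held by single cells were counted after each cell was thinned to 5000 UMIs. In mesenchymal cells the share with any group 3 UMI was 1.19% at E8.5 and 8.94% and 8.23% at E9.5 in control and Tbx1 null. At E10.5 it was 20.3% and 14.6% in the controls and 39% and 47.4% in the libraries labelled Tbx1 null. In Twist1 cells the E10.5 shares were 15.2% and 14.1% against 35.4% and 38.8%. In neural cells they were 56.2% and 55.8% against 60.4% and 66.4%, and in Sox10 cells 25.9% and 34.9% against 45.7% and 42.8%.

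Cells with a group 2 UMI and no group 3 UMI, the set of second arch crest, made up 34.3% and 33.3% of mesenchymal cells in the E10.5 controls and 35% and 23.8% in the libraries labelled Tbx1 null. Cells with neither made up 45.4% and 52.1% against 26% and 28.8%. Since a thinned cell can miss a gene that it expresses, a cell without a UMI is not shown to lack the gene. Without thinning, Hoxa2 was found in 64.6% and 56.6% of control and 74% and 71.9% of Tbx1 null mesenchymal cells, and in 29.4%, 27.5%, 32.3% and 30% with it. Median depths in this class were 21992 and 16277 UMIs in controls and 24031 and 21568 in the libraries labelled Tbx1 null.

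**Figure D4:**
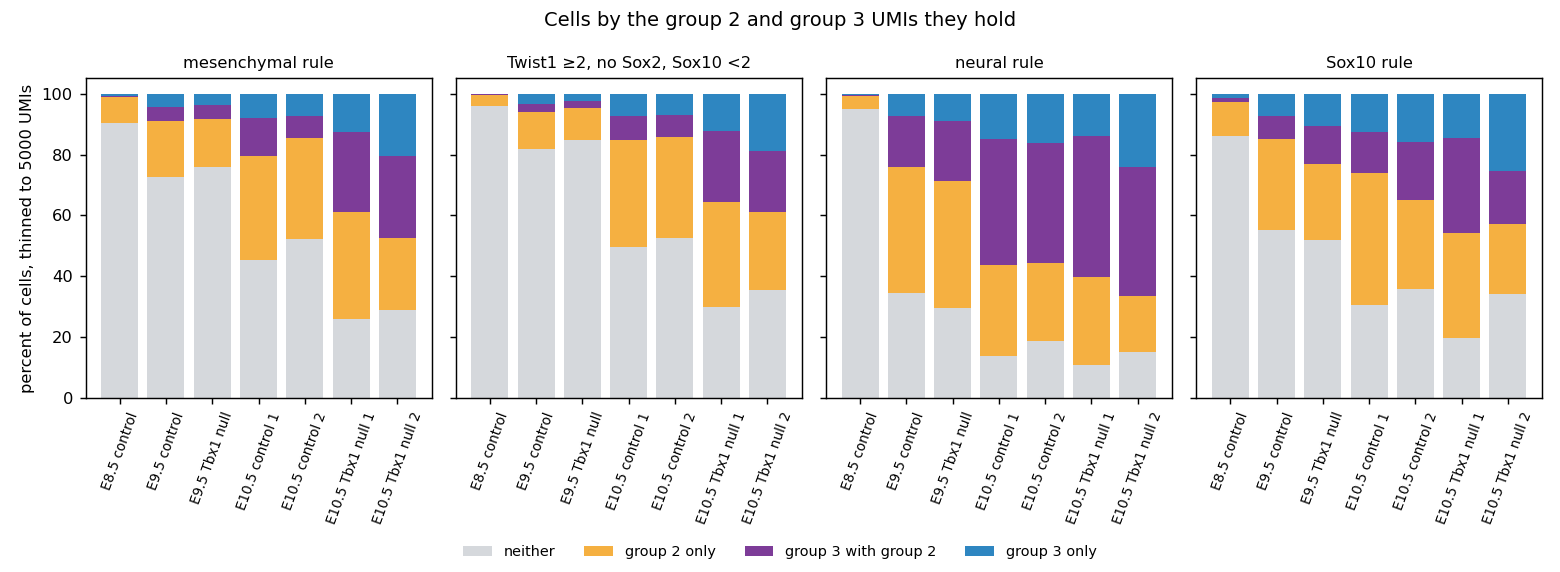
Percent of cells of each library, thinned to 5000 UMIs, that held neither group 2 nor group 3 UMIs, group 2 only, both, or group 3 only, for the mesenchymal class, Twist1 cells, neural cells and Sox10 cells. Mesenchymal cells with any group 3 UMI go from 1.19% at E8.5 to 14.6% to 47.4% at E10.5.

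Cells that should lack these genes give the background. At E8.5, 1321 cells with 2 or more UMIs of Otx2, a forebrain and midbrain gene, held Hoxa2 in 0.303% and Hoxb2 in 0.151% of cells, and Hoxb1, Hoxb3 and Hoxd3 in 0%, which allows at most 0.279% by the binomial interval. In comparison, mesenchymal cells of that library held Hoxa2 in 3.36%, Hoxb2 in 7.44%, Hoxb1 in 4.44% and Hoxb3 in 0.325% (0.149% to 0.616%). Hoxa3 and Hoxd3 were each held by 0.505% of them (0.277% to 0.847%), beside 0.0757% for Hoxa3 in Otx2 cells (up to 0.421%). The intervals of all 3 overlapped those of the Otx2 cells, for Hoxd3 only just, at median depths of 25646 and 20396 UMIs. At E9.5, mesenchymal cells with a UMI of Lhx8, a first arch gene, held Hoxa2 in 4.14% and 3.47% (control and Tbx1 null), Hoxb2 in 4.14% and 3.01% and Hoxb3 in 0.501% and 0.511%. All mesenchymal cells held Hoxa2 in 10.1% and 9.51%, Hoxb2 in 16.4% and 14.8% and Hoxb3 in 4.62% and 4.26%.

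At E10.5 these cells could not serve as background. Lhx8 cells held Hoxa2 in 35.2% to 43.2% and Hoxd3 in 4.29% to 17.7% of cells, and cells with 2 or more Otx2 UMIs held Hoxb2 in 23% to 33.5%. The first arch was left out of this dissection, and the Hoxa2 shares of Lhx8 cells lay above those of the whole class in all 4 libraries.

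From E9.5 on, the 11 listed arch genes were split between both directions over the Hox sets of mesenchymal cells. At E8.5, where 17 cells held both groups, 7 were lower and 1 higher in them than in cells with group 2 only. In cells with both groups, 6 were lower and 5 higher than in cells with group 2 only in each E9.5 library. At E10.5, 5 were lower and 6 higher in both controls and in replicate 2 of Tbx1 null, and 6 were lower and 5 higher in replicate 1. The genes named here are 7 of the 11 and were chosen after their values were seen.

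At E9.5, Barx1, a gene of first and second arch mesenchyme, was at 204 CPM in control cells with neither group, 37.6 in cells with group 2 only and 3.21 in cells with both groups, and the Tbx1 null library had 245, 50.6 and 7.43. Dlx5 was at 70.9, 44.8 and 13.2 CPM in the control and 85.6, 44.8 and 9.47 in the Tbx1 null library, and Hand2 at 34.3, 20.1 and 4.06 and at 42.1, 16.8 and 4.66. These values all fall along the sets. Meox1 ran the other way, with 46.4, 156 and 295 CPM in the control and 13.2, 67 and 168 in the Tbx1 null library, and so did Alx1, with 12.5, 20.4 and 44.3 and with 13.3, 18.3 and 35. Six2 was low, at 1.08, 1.28 and 3.89 CPM and at 1.2, 1.24 and 2.48. Tbx3, a T-box gene, had no such order, at 24.6, 16.7 and 24.7 CPM and at 35.1, 19.6 and 20.3.

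At E10.5 cells with both groups held less Dlx5 than cells with group 2 only, at 22.1 and 20.5 against 91.4 and 77 CPM in the controls and 14.3 and 2.21 against 45.9 and 2.8 in the libraries labelled Tbx1 null. Barx1 was at 96.5 and 68.1 against 227 and 173 CPM in the controls and 17.7 and 5.67 against 142 and 14.7 in the others. Hand2 was at 54.9 and 72.7 against 73.2 and 88.2 CPM and at 45.2 and 37.5 against 89.1 and 78.7. All 3 were thus lower with both groups in each library. Alx1 was at 27.8 and 30.4 CPM with both groups and 6.26 and 7.97 with group 2 only in the controls, and at 31.8 and 24.2 against 13.2 and 17.2 in the libraries labelled Tbx1 null. Six2 was at 23.9 and 25.4 against 6.1 and 4.73 CPM and at 29.4 and 31.2 against 8 and 25.1. Tbx3 was at 31 and 62.8 against 11.8 and 17.2 CPM and at 41.1 and 32.6 against 27.5 and 26.7. Meox1 was at 23.8 and 29.8 against 10.6 and 8.1 CPM and at 50.7 and 11.8 against 12 and 10.5. These 4 were higher with both groups in each library.

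Meis1, whose product is a HOX cofactor, was at 13.9 CPM in E9.5 control cells with neither group, 59.7 with group 2 only and 47.2 with both, and at 12.2, 67.1 and 60.9 in the Tbx1 null library. At E10.5 it was at 116 and 120 CPM in control cells with neither group and 125 and 141 in cells with both, and at 94.6 and 130 against 118 and 163 in the libraries labelled Tbx1 null. These are descriptions of cells of the same libraries and carry no test.

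Pairs of the 6 genes were then sought in the same thinned cells, as the number of cells with both over the product of the shares. Pairs expected in at least 5 cells gave 224 values over classes and libraries, of which 83% lay above 1, with a median of 1.21. The classes share cells, and other pairs of genes were not counted, so whether this is particular to the 6 genes was not tested. The ratio cannot exceed 1 over the larger of the shares, so values of pairs or libraries with different shares are given side by side and not compared. In mesenchymal cells the median was 3.7 for Hoxb3 and Hoxd3 (1.54 to 5.02 in 6 libraries), 3.54 for Hoxb1 and Hoxb2 (1.81 to 8.96) and 3.03 for Hoxa3 and Hoxb3. Hoxa2 and Hoxb2, the pair of group 2, had 1.16 (1.02 to 6.94 in 7 libraries). Their values were 6.94 at E8.5, where 48 cells held both against 6.92 by the product of shares, 2.1 and 2.71 at E9.5 and 1.02 to 1.16 at E10.5.

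Hoxb1 and Hoxb2, neighbours in 1 cluster, were found together in 82 of 2770 mesenchymal cells at E8.5, where the product of shares gives 9.15 cells. Hoxb1 and Hoxd3 in neural cells had a median of 0.775 and 1 of 6 libraries above 1. The values of this pair were 0.508 and 0.514 at E9.5, with 95% intervals of 0.244 to 0.934 and 0.235 to 0.976. At E10.5 they were 0.904 (0.573 to 1.36) and 1.87 (1.07 to 3.03) in the controls and 0.646 (0.486 to 0.841) and 0.999 (0.799 to 1.23) in the libraries labelled Tbx1 null, so that intervals lay on both sides of 1. In Sox10 cells Hoxa2 and Hoxd3 had a median of 0.884, and Hoxb3 and Hoxd3 1.5.

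**Figure D5:**
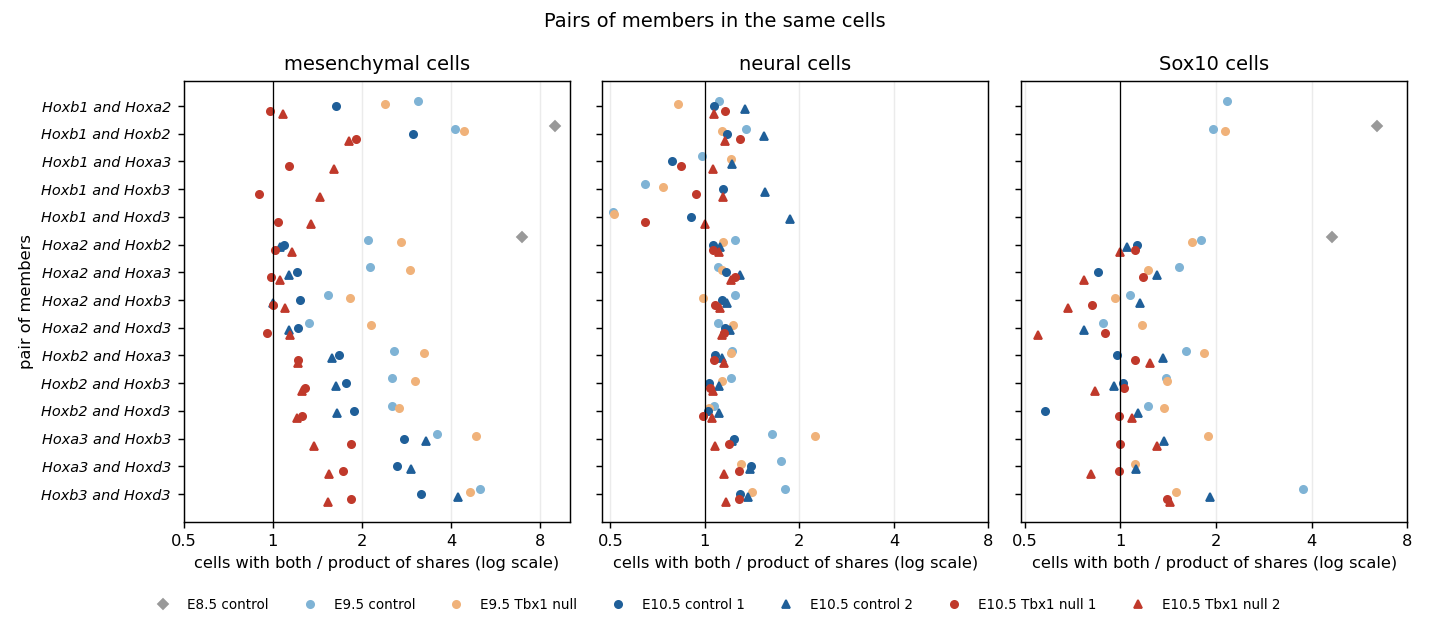
Cells holding both genes of a pair over the product of their shares (log scale, 1 marked), for pairs expected in at least 5 thinned cells, with 1 point a library. Group 3 pairs in mesenchymal cells lie at 1.38 to 5.02, and Hoxb1 with Hoxd3 in neural cells lies at 0.508 to 1.87.

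Over the 21 sums of 3 classes in 7 libraries, which share libraries and depth, the levels of the 5 genes of groups 2 and 3 were alike. Their Pearson r on log2(CPM + 1) was 0.847 to 0.96, whereas Hoxb1 had -0.222 to 0.113 with them. Such values were common over these sums. By likeness to Hoxa3, for example, Hoxb3 ranked 98 and Hoxa2 1024 of 11141 genes, while Hoxb3 ranked 3 for Hoxd3. Among 11142 genes with at least 5 CPM in 1 sum, the genes most like Hoxb1 were N4bp3 (0.879), Lrrtm3 (0.858) and Fam81a (0.858). Those most like Hoxa2 were Hoxaas2 (0.981), a noncoding RNA of the same cluster, Pwwp2a (0.954) and Gm10762 (0.953), and those most like Hoxb2 were Sord (0.94), Hoxd3 (0.921) and Hoxb3os (0.92), which overlaps it on the other strand. Hoxa3 was most like Osbpl3 (0.969), Wsb2 (0.966) and Bahcc1 (0.964), Hoxb3 like Gm15050 (0.976), Hoxd4 (0.973) and Grb2 (0.961), and Hoxd3 like Hoxd4 (0.973), Hoxb4 (0.968) and Hoxb3 (0.96).

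Other genes of the Hox system were counted by list. Of the 7 listed genes of groups 4 and 5, which start farther back than group 3, all 7 were higher in neural than in mesenchymal cells at E10.5 (median log2 difference 2.62, all genes 0), 4 were higher in Sox10 than in mesenchymal cells, and all 7 were lower in Sox10 than in neural cells, beside 20.6%, 18.9% and 26.2% of all genes in these directions. From E9.5 to E10.5, 6 rose in mesenchymal cells (median 3.56, all genes 0.07), 6 in neural cells and 7 in Sox10 cells, where 11.5%, 5.51% and 12.9% of all genes rose. Hoxc5 rose by 5.43 in mesenchymal cells and Hoxa5 by 3.66 in neural cells. Hoxd1, a group 1 gene, rose in mesenchymal cells by stage (2.57, edgeR adjusted p = 0.0208). Of the 5 noncoding RNAs of the clusters, 4 were higher in neural cells, Hoxb5os most (3.60).

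Of 11 inducers and cofactors of Hox genes, 3 were higher and 3 lower in neural than in mesenchymal cells, beside 20.6% of all genes higher and 19.8% lower. Egr2, which activates Hoxa2 and Hoxb2 in the hindbrain, was higher in neural cells (3.41 ± 0.70, edgeR adjusted p = 0.0102). Sox10 cells also held more Egr2 than mesenchymal cells (6.25), and Egr2 is also a gene of early Schwann cells. Of the 11, 2 were higher and 6 lower in Sox10 cells there, beside 18.9% and 22.8% of all genes. By stage, 3 rose and 1 fell in mesenchymal cells, beside 11.5% and 12.2% of all genes. Meis1 was among those that rose (1.84 ± 0.17, edgeR adjusted p = 0.00454). Of 11 retinoic acid genes, 10 were tested between neural and mesenchymal cells. Cyp26b1, which degrades retinoic acid, was higher in neural cells (2.43), and Cyp26a1 (-5.89) and the receptor gene Rarg (-4.42) were lower, with 5 of the 10 higher and 3 lower. Cyp26a1 (4.88) and Aldh1a2, which makes retinoic acid (3.26), were among 3 of 10 that rose in mesenchymal cells from E9.5 to E10.5, and Crabp1 fell by 2.05, beside 11.5% of all genes higher and 12.2% lower at E10.5.

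Of 7 genes of hindbrain and midbrain position, 5 were tested between neural and mesenchymal cells, of which 2 were higher in neural cells, Egr2 and Gbx2 (1.75), and 1 was lower, beside the 20.6% and 19.8% of all genes. All 7 were tested between stages in mesenchymal cells, where Otx2 rose by 2.03 and En2 fell by 4.04, beside 11.5% of all genes higher and 12.2% lower at E10.5. Of 11 arch genes, all 11 were lower in neural than in mesenchymal cells, Barx1 most (-7.02), and 4 rose in mesenchymal cells by stage against the same shares, Six2 by 2.55 and Lhx6 by 2.04, while Meox1 fell by 2.43. By genotype at E10.5 no gene of these 7 lists was called in any class. In mesenchymal cells the median log2 difference was 1.32 over the 7 genes of groups 4 and 5, 1.26 over the noncoding RNAs, 1.23 over the genes of hindbrain and midbrain position, 0.36 over the retinoic acid genes, 0.11 over the inducers and cofactors and 0.07 over the arch genes, beside -0.02 over all genes.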

How the data were processed

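The authors aligned reads to mm10 and counted UMIs per gene and barcode with Cell Ranger 6.0.1, and the deposited counts of 7 libraries were used as they are. Barcodes with fewer than 1000 genes or over 10% mitochondrial UMIs were removed, and Scrublet (scanpy 1.11.5) removed predicted doublets at 0.8% per 1000 barcodes. The alternative named the stricter mitochondrial filter allowed at most 5% mitochondrial UMIs and also lowered the minimum to 200 genes. Libraries shared 0 to 44 barcodes. UMIs were summed per library and class and tested across all genes with the edgeR 4.0.16 quasi-likelihood test (R 4.3.3, filterByExpr, TMM), called at a Benjamini-Hochberg adjusted p under 0.05, with DESeq2 1.42.0 as an alternative. Cells meeting both rules were left out of class comparisons. Shares of cells used cells thinned to 5000 UMIs, leaving out shallower cells, with exact binomial intervals. Intervals are at 95%, and the limit of a 0 is 3 UMIs. The members and lists were chosen with earlier results of these data known. All 6 members are given in every main comparison, by genotype in neural cells partly as a range. Given too are the 3 most similar genes for each, and at most the 2 called genes with the largest change in each direction per list. Counts of the real libraries were simulated with 1 common dispersion for all genes and 200 genes changed 2-fold. Of these 77% were recovered between neural and mesenchymal cells and 2.5% by genotype in mesenchymal cells. Some listed genes are not reported here by name.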

Additional observations from a re-analysis of the deposited data

How the results depend on the processing

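Over all alternatives, 682 log2 differences of the 6 members kept their direction and their side of the threshold, 44 came to pass it, 23 no longer passed it and 39 changed sign. None of those 39 passed the threshold before or after. By genotype, Hoxa2 in mesenchymal cells turned from -0.14 to 0.058 thinned and 0.045 in Twist1 cells and ran from -0.38 to 0.10 with 1 library left out. In neural cells Hoxb2 was at -0.054 with the replicate block, and with 1 library left out Hoxb2 ran from -0.60 to 0.47, Hoxa2 from -0.353 to 0.070 and Hoxb3 from -0.068 to 0.44. In Sox10 cells Hoxa2 was at 0.013 with doublets kept and 0.20 with cells of 1 class rule, and Hoxa3 at -0.28 thinned. With 1 library left out there, Hoxa2 ran from -0.55 to 0.27, Hoxa3 from -0.23 to 0.41, Hoxb2 from -0.73 to 0.77 and Hoxb1 from -0.22 to 7.28, the last fitted against a control at 0 UMIs. Hoxa2 between neural and mesenchymal cells ran from -0.031 to 0.11 with 1 library left out and passed the threshold thinned (0.23, edgeR adjusted p = 0.0239). Sox10 against mesenchymal cells put Hoxb3 at 0.10 in controls alone, and Sox10 against neural cells put Hoxa3 at 0.067 thinned. The interaction of Hoxa2 was -0.010 by DESeq2, -0.009 with DESeq2 size factors, -0.039 with no filter and -0.19 thinned. It was -0.11 with Twist1 cells and neural cells outside the Sox10 rule, and -0.14 to 0.24 with 1 library left out. By stage, mesenchymal Hoxb2 was at -0.15 in controls alone and from -0.15 to 0.83 with 1 library left out, and Hoxb1 from -2.10 to 0.97. In Sox10 cells Hoxa2 was at -0.029 by DESeq2, -0.030 with DESeq2 size factors, -0.038 with no filter, -0.14 with cells of 1 class rule and -0.20 to 0.16 with 1 library left out, and Hoxb2 from -0.25 to 0.39. Counts of calls by genotype moved as follows. In mesenchymal cells 16 genes were called, and 720 by DESeq2, 4 with DESeq2 size factors, 1372 with no filter on low counts, 128 with the replicate block, 4 with cells of 1 class rule only, 26 with Twist1 cells (chosen after seeing the data) and 15 to 326 with 1 library left out. Of the members, 0 were called there, and 3 by DESeq2, 4 with no filter, 1 with thinned cells, 2 with the block, 1 with Twist1 cells and 0 to 2 with 1 library left out. In neural cells 0 genes were called by edgeR (778 with an unadjusted p under 0.05), and 42 by DESeq2, 145 with no filter, 3 thinned, 25 with the block and 0 to 152 with 1 library left out, with members at 1 with no filter and 0 to 1. In Sox10 cells 2 genes were called, and 64 by DESeq2, 339 with no filter, 0 with the stricter mitochondrial filter, 9 with doublets kept, 44 thinned, 73 with the block, 5 with cells of 1 class rule and 96 to 739 with 1 library left out, with members at 1 with no filter and 0 to 2. Replicate numbers are shared by 2 pairs, whose deviations correlated at 0.075 in mesenchymal, 0.228 in neural and 0.16 in Sox10 cells, and nothing in the labels ties equal numbers together. The interaction called 1 gene, and 289 by DESeq2, 0 with DESeq2 size factors, 6 with no filter, 2 with doublets kept, 5 thinned, 9 with Twist1 cells and 0 to 246 with 1 library left out, with members at 5 by DESeq2 and 0 to 1. Between neural and mesenchymal cells, leaving out 1 library gave 4510 to 6620 genes and 4 to 5 members, and thinning 6 members. Sox10 against mesenchymal cells gave 3543 genes thinned and 4798 to 5808 with 1 library left out (4 to 5 members), and against neural cells 3881 thinned, 4375 in controls alone and 5239 to 5925 (5 to 6 members). By stage, mesenchymal cells gave 0 to 4788 genes with 1 library left out, and 4 members with no filter, 4 thinned, 3 with Twist1 cells and 0 to 2 with 1 library left out. Neural cells gave 2682 genes by DESeq2, 3126 with no filter, 820 with the stricter mitochondrial filter, 46 in controls alone and 0 to 1623, with 0 members in controls alone, 0 to 3 with 1 library left out and 2 to 4 under the other alternatives. Sox10 cells gave 1183 genes thinned, 1858 with cells of 1 class rule and 520 to 4556, with 1 member thinned and 0 to 2. At E9.5 with doublets kept, the mesenchymal ratio was 0.982 for Hoxa2, 0.862 for Hoxb2, 0.753 for Hoxb3 and 0.877 for Hoxd3, and Hoxb2 was at 0.86 scaled by total UMIs. Where no cause is named here, the cause was not tested.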
